A study of Sus scrofa with 6 samples.

Results

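The miR-29 family was followed in small RNA from cultured pig immature Sertoli cells, the somatic cells of the seminiferous tubule that support germ cells. Its members are, by a rule on names, every deposited entry called miR-29a, miR-29b or miR-29c, with or without an arm (5p or 3p, the side of the hairpin that the mature molecule comes from). The rule found 4 entries among 1645 (ssc-miR-29a-3p, ssc-miR-29a-5p, ssc-miR-29b and ssc-miR-29c), written below without the species prefix. Both groups were immature Sertoli cells (iSCs) from Sus scrofa testis at 80 to 90 days gestation, grown in medium with 10% fetal bovine serum and antibiotics. The control group (3 libraries) was untreated, and the AA2P group (3 libraries) received L-ascorbic acid 2-phosphate at 250 µM (AA2P, a stable form of vitamin C, here the sesquimagnesium salt hydrate) once the cells had been seeded for 6 h. The labels give neither the length of exposure nor whether the libraries of a group were separate cultures or animals. The p-values therefore measure the spread between these libraries, which may be technical.

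Members of the miR-29 family share a seed, the stretch near the 5′ end that finds target transcripts. They are known as repressors of fibrillar collagens and other matrix proteins and of the DNA methyltransferases DNMT3A and DNMT3B, and they also target TET enzymes, which oxidise methylated cytosine. Vitamin C is a cofactor of both TET enzymes and the hydroxylases that mature collagen. In the pig RefSeq annotation (Sscrofa11.1), the gene of miR-29a lies next to 1 gene of miR-29b (MIR29B-1), and the gene of miR-29c next to the other (MIR29B-2). The table has 1 entry for miR-29b and does not separate the loci. miR-29a and miR-29c are near-identical in sequence, and how the authors assigned reads that suit more than 1 member was not given, so the split between members is less certain than their sum.

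Levels are in TPM, which here scale counted reads to a common library total, with no length term seen in the values. The libraries held 25.8 to 36.0 Mreads (counted reads, mega), recovered from the step between low values, and the intervals given below cover counting error only. AA2P replicate 2 stood farthest from its group (chi-square per degree of freedom of 1055 and 1164 to the other AA2P libraries, against 142 to 311 for all other pairs within a group). miR-202-5p, a gonad-enriched miRNA of Sertoli cells, was near 0 at 0.657 ± 0.316 TPM (control) and 0.517 ± 0.142 TPM (AA2P; SD, n = 3 each), and miR-202-3p was listed at 0 in all controls. Of the other gonadal somatic markers, miR-140-3p was abundant (1106 ± 61.5 and 1178 ± 69.9 TPM) and miR-132 and miR-212 were low (2.36 and 0.553 TPM in controls, 4.40 and 0.790 TPM with AA2P); the 5 summed to 1052 to 1174 and 1115 to 1256 TPM. Of the fibroblast markers, miR-199a-5p and miR-214-3p were at or near 0 and miR-199a-3p was low (1.81 and 1.62 TPM). miR-10b and miR-152 were abundant and were called in opposite directions (log2 fold change 0.48 and -0.67, limma, adjusted p = 0.0313 and 0.0183). Endothelial miR-126-3p (101 and 96.4 TPM) and miR-126-5p (3.19 and 3.16 TPM) were not called as deposited. Of 9 germ cell markers 2 were listed: miR-371-5p was near 0 and miR-34c, at 178 and 242 TPM, was called higher (limma, adjusted p = 0.0464). The calls of miR-10b and miR-34c held under none of the 5 other scalings below. The summed level of 6 blood markers was 1.17 to 1.81 TPM in control libraries and 2.56 to 11.1 TPM in AA2P libraries. The top of the AA2P range rested in part on miR-223 (1.82 ± 3.10 TPM with AA2P), which came almost wholly from 1 library. Only miR-142-3p was tested, at 0.507 ± 0.0802 TPM (control) and 1.98 ± 0.627 TPM (AA2P). It passed the filter on low values, given below, through the AA2P libraries alone, so its higher direction was fixed by the filter. The summed level of 6 muscle and myoid markers was 168 to 227 and 219 to 307 TPM, with 0 of 4 tested called. The part of such cells in the miR-29 levels was not tested.

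The 3p product of miR-29a dominated the family and was lower in the AA2P cells. miR-29a-3p stood at 1734, 1456 and 1726 TPM in control replicates 1, 2 and 3, and at 1221, 1202 and 1248 TPM in AA2P replicates 1, 2 and 3. All 3 AA2P libraries lay below the lowest control, control replicate 2, and they lay closer together than the controls did. The group means were 1639 ± 159 and 1224 ± 23.2 TPM (SD, n = 3 per group), 1.34-fold lower with AA2P. These values rested on 32803 to 52362 reads per library. In RNA of a whole culture, fewer cells that express a miRNA and less of it per cell cannot be told apart. By level, miR-29a-3p ranked between 46 and 49 among the known miRNAs of the controls and between 59 and 63 with AA2P. It fell by 0.42 on the log2(TPM + 1) scale (SE 0.0881, limma, adjusted p = 0.0183 over all 433 entries tested), a scale on which the change of low entries is understated. The call ended without control replicate 1 (limma, adjusted p = 0.0619) or control replicate 3 (0.0720), and the fall was then 0.37 and 0.38.

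**Figure D1:**
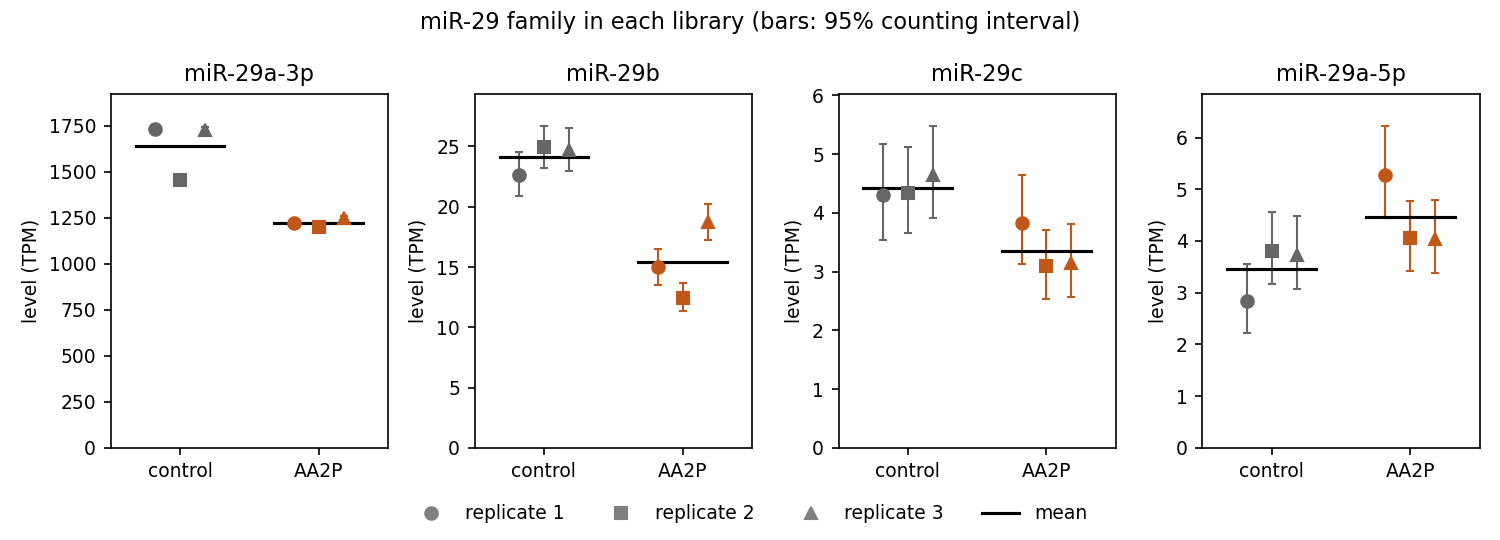
Level in TPM of each miR-29 entry (vertical axes from 0, one scale per panel) in the 3 control and 3 AA2P libraries. Points are libraries, thin bars the 95% counting interval and black lines group means; miR-29a-3p, miR-29b and miR-29c lie lower in every AA2P library than in any control, and miR-29a-5p lies higher.

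miR-29b was far scarcer and moved the same way. It stood at 22.65, 24.93 and 24.73 TPM in control replicates 1, 2 and 3, and at 14.96, 12.45 and 18.72 TPM in AA2P replicates 1, 2 and 3. The groups did not overlap, and AA2P replicate 3 was the closest to the controls. Means were 24.1 ± 1.26 and 15.4 ± 3.16 TPM (SD, n = 3 per group), 1.57-fold lower. The AA2P libraries varied by 20.5% of their mean, where counting error alone gives 4.54%. miR-29b fell by 0.63 on the log2 scale (SE 0.157, limma, adjusted p = 0.0313). This call ended without any 1 of the control libraries (limma, adjusted p = 0.0688, 0.0818 and 0.0972 for replicates 1, 2 and 3) or without AA2P replicate 1 (0.0765).

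miR-29c was the scarcest of the mature guide products. It stood at 4.30, 4.34 and 4.65 TPM in control replicates 1, 2 and 3, and at 3.83, 3.09 and 3.14 TPM in AA2P replicates 1, 2 and 3. Again no AA2P library reached a control, but the counting intervals of single libraries overlapped across the groups (3.54 to 5.18 TPM for control replicate 1 and 3.13 to 4.65 TPM for AA2P replicate 1), on 102 to 141 reads each. Means were 4.43 ± 0.192 and 3.35 ± 0.414 TPM (SD, n = 3 per group), and the log2 difference of -0.32 (95% interval -0.67 to 0.03) did not pass (limma, adjusted p = 0.147).

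The last entry, miR-29a-5p, is the passenger arm of the miR-29a hairpin, which does not carry the family's seed. It was not lower with AA2P, unlike the 3p arm. It stood at 2.83, 3.81 and 3.73 TPM in control replicates 1, 2 and 3, and at 5.28, 4.06 and 4.03 TPM in AA2P replicates 1, 2 and 3. The lowest AA2P library lay just above the highest control, on 73 to 146 reads per library. Their counting intervals overlapped (3.37 to 4.79 TPM for AA2P replicate 3 and 3.17 to 4.55 TPM for control replicate 2). Means were 3.46 ± 0.544 and 4.46 ± 0.713 TPM (SD, n = 3 per group), and the log2 difference of 0.29 (95% interval -0.13 to 0.72) did not pass (limma, adjusted p = 0.257).

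Of the 4 entries 2 were called, both lower, by limma at an adjusted p under 0.05. All 4 passed the filter on low values (1 TPM or more in 3 or more libraries) in the control group alone as well as in the AA2P group. Of all tested entries 24.7% were called, 4.85% lower and 19.9% higher (21 and 86 of 433). These shares count some values more than once: miR-9, miR-9-1 and miR-9-2 hold identical values, and all were called higher. They also include entries that passed the filter through 1 group alone, such as miR-142-3p with AA2P, whose direction was then fixed. How many such entries there were in each direction was not counted. The AA2P libraries all lay below the controls for 9.24% of tested entries, among them miR-29a-3p, miR-29b and miR-29c, and all above for 40.4%, among them miR-29a-5p. Tested entries had a median log2 fold change of 0.25. Relative to that median, miR-29a-3p stood at -0.66, miR-29b at -0.88, miR-29c at -0.57 and miR-29a-5p at 0.04. Only 34 of the 433 entries had a lower log2 fold change than miR-29b, 49 than miR-29a-3p and 61 than miR-29c, while miR-29a-5p was in the middle, with 237 below it.

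**Figure D2:**
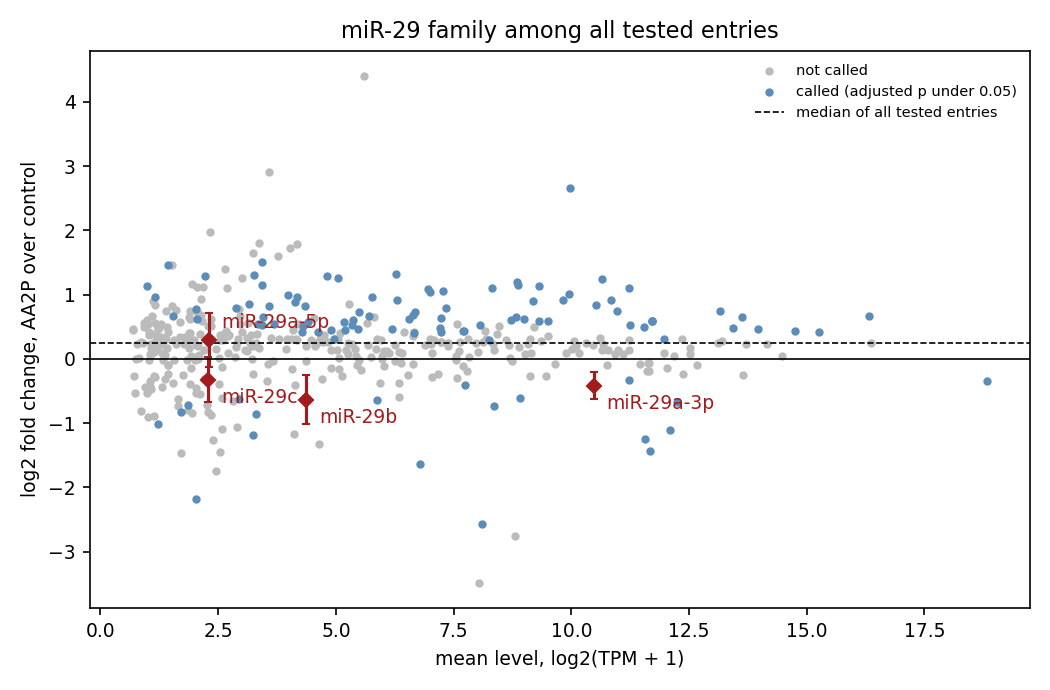
Log2 fold change (AA2P over control, vertical axis) against mean level, log2(TPM + 1), for the 433 tested entries, with the miR-29 entries as diamonds and their 95% intervals. The dashed line is the median of all tested entries at 0.25; miR-29a-3p, miR-29b and miR-29c lie below 0 and miR-29a-5p near the dashed line.

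The size of these changes depended on the scaling. In the deposited TPM, miR-21-5p alone took 51.3 to 53.0% of a control library and 37.0 to 44.1% of an AA2P library, and all entries share 1 total. The 5 other scalings shifted the median change of tested entries by -0.19 to -0.28, and the split of higher and lower calls went from 86 and 21 to 48 and 50 (trimmed mean, and equally median of ratios), 45 and 42 (quantile), 39 and 43 (totals without miR-21-5p) and 55 and 36 (totals without the 10 most abundant entries). Under these scalings miR-29a-3p was lower by 0.61 to 0.78 on the log2 scale and miR-29b by 0.82 to 0.95, and both were called in 5 of 5. miR-29c, at -0.48 to -0.56, was called lower in 4 of 5 (limma, adjusted p = 0.0230 to 0.0489), all but the totals without the 10 most abundant entries. miR-29a-5p stayed above 0 in all 5 (0.06 to 0.14) and was called in none.

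**Figure D3:**
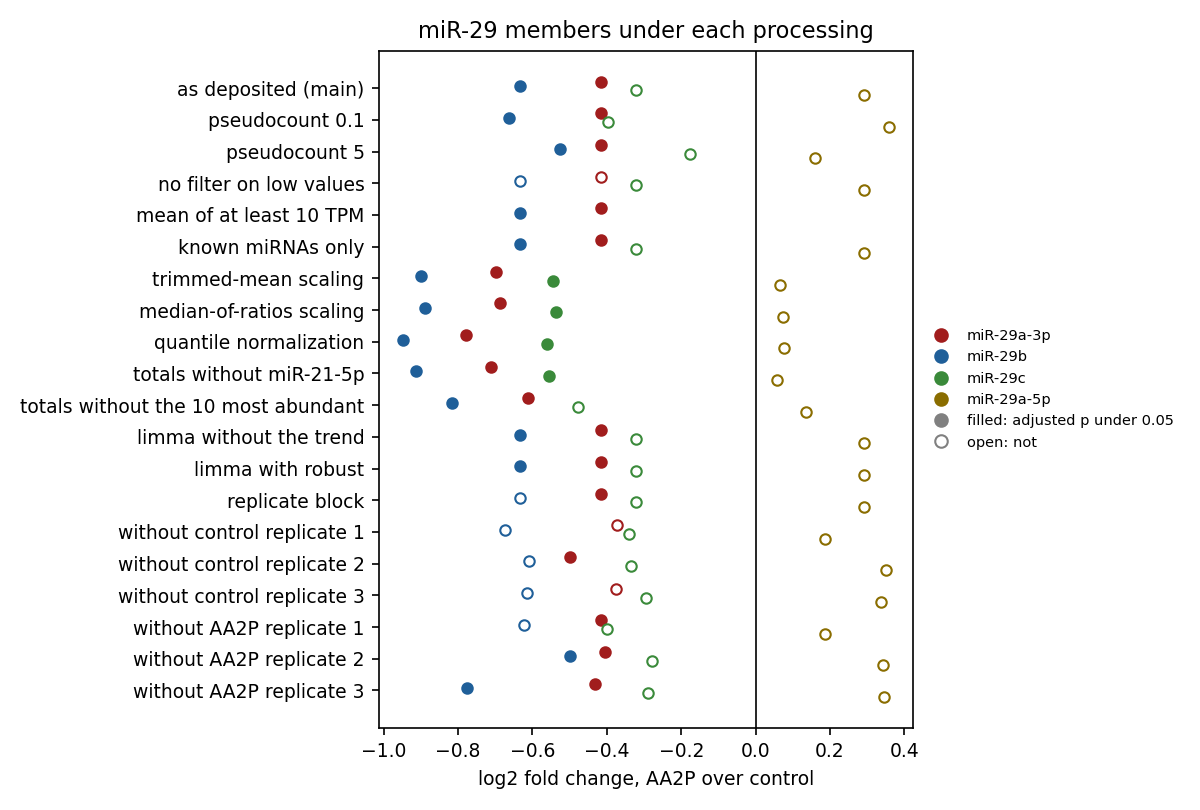
Log2 fold change (AA2P over control, horizontal axis) of each miR-29 entry as deposited and under each other processing (rows). Filled points have an adjusted p under 0.05 by limma; miR-29a-3p, miR-29b and miR-29c stay left of 0 and miR-29a-5p right of 0 in every row where they were tested.

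miR-29a-3p made up nearly all of the family in both groups. Summed over the 4 entries, the family held 0.176, 0.149 and 0.176% of the TPM in control replicates 1, 2 and 3, and 0.124, 0.122 and 0.127% in AA2P replicates 1, 2 and 3. The part of miR-29a-3p in this sum was 97.8 to 98.3% in control libraries and 98.0 to 98.4% in AA2P libraries. The TPM of miR-29a-3p were 58.4 to 76.6 times those of miR-29b in controls and 66.7 to 96.6 times with AA2P, ranges that overlapped. Reads of different sequences need not be captured equally, so these are ratios of reads, not of molecules.

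Ratios of TPM within a library, taken with no pseudocount, are untouched by any scaling that divides a library by 1 factor; quantile normalization is not of that kind and can change them. The log2 ratio of miR-29b to miR-29a-3p was -6.08 ± 0.199 without and -6.33 ± 0.267 with AA2P (SD, n = 3 in each group), a difference of -0.25 that was not shown to exceed the spread (two-sided exact permutation test, p = 0.3, adjusted p = 0.6 over 2 ratios; 3 against 3 libraries cannot go below 0.1). So miR-29b was not shown to fall further than miR-29a-3p. The log2 ratio of miR-29c to miR-29a-3p was -8.53 ± 0.133 and -8.52 ± 0.176 (two-sided exact permutation test, p = 0.9, adjusted p = 0.9). miR-29c amounted to 0.248 to 0.298% of miR-29a-3p in controls and 0.252 to 0.314% with AA2P. Whether reads of miR-29a contribute to the miR-29c entry was not tested.

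The 5p arm took a larger part of the miR-29a hairpin in the AA2P libraries, although the difference did not pass adjustment. It made up 0.163, 0.261 and 0.216% of both arms in control replicates 1, 2 and 3, and 0.431, 0.337 and 0.322% in AA2P replicates 1, 2 and 3. Every AA2P library lay above every control, with control replicate 1 lowest and AA2P replicate 1 highest. The TPM of miR-29a-3p were 382 to 613 times those of miR-29a-5p in controls and 231 to 310 times with AA2P. The log2 ratio of 5p to 3p was -8.90 ± 0.343 (control) and -8.11 ± 0.227 (AA2P; SD, n = 3 each), and with 3 against 3 libraries the exact two-sided permutation p was at its minimum, 0.1. Over the 60 hairpins with both arms tested, limma on log2((5p TPM + 1)/(3p TPM + 1)) gave miR-29a both the largest increase (0.71, SE 0.169, 95% interval 0.35 to 1.07) and the smallest p, yet its adjusted p was 0.0545. No hairpin was called by limma (0%), while 21.7% had an unadjusted p under 0.05 (13 of 60). Without control replicate 2, limma called 7 of the 60 hairpins, miR-29a among them (adjusted p = 3.11e-04). Without AA2P replicate 2, miR-29a was the 1 called (limma, adjusted p = 0.00899). Leaving out any other library gave no call of miR-29a. Its adjusted p by limma was 0.300 and 0.212 without control replicates 1 and 3, and 0.127 and 0.0807 without AA2P replicates 1 and 3. Nor was it called with a pseudocount of 0.1 TPM (limma, adjusted p = 0.0761) or with the replicate number as a block (0.379). This comparison of arms was added after the values were seen.

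**Figure D4:**
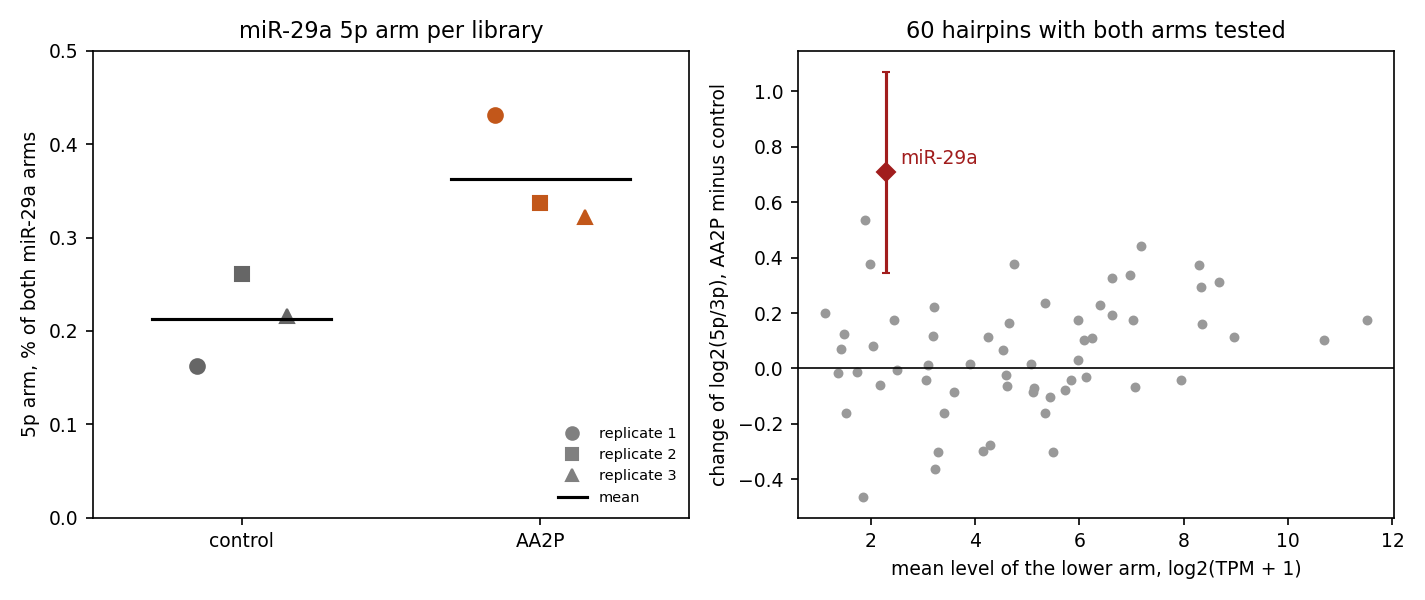
Left, the 5p arm as a percentage of both miR-29a arms in each library (points) with group means (lines); all AA2P libraries, at 0.322% or more, lie above all controls. Right, the change of log2(5p/3p), AA2P minus control, against the level of the lower arm for 60 hairpins, with miR-29a (0.71, 95% interval) as the diamond at the top.

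Other miRNAs with known DNMT or TET targets were called about as often as entries in general. This list and those below were chosen with earlier results of these data known. Besides the 3 miR-29 guide products, 12 listed miRNAs were tested: 1 was called lower, 2 higher and 9 not called, where 4.85% and 19.9% of all tested entries were. Their median log2 fold change was 0.14 against 0.25 for all tested entries, and -0.20 to -0.05 under the 5 other scalings; trimmed-mean and median-of-ratios scaling called 0 higher and 2 lower, miR-152 and miR-126-3p, by limma (1 higher and 2 lower at an unadjusted p under 0.05). miR-152, a repressor of DNMT1, fell by 0.67 on the log2 scale, from 5931 ± 724 to 3744 ± 531 TPM (limma, adjusted p = 0.0183), a call that held under 4 of 5 other scalings. Its relative miR-148b-3p, with the same seed, rose from 3591 ± 136 to 4436 ± 40.5 TPM (limma, adjusted p = 0.0138), a call that held under 1 of 5 other scalings. miR-22-3p, a repressor of TET enzymes, rose from 352 ± 39.0 to 556 ± 103 TPM (limma, adjusted p = 0.0319), a call that held under none of the 5. miR-26a, which also targets TET transcripts, stood at 8064 ± 879 and 9596 ± 1285 TPM (limma, adjusted p = 0.191), and its log2 change was below 0 under 4 of 5 other scalings. miR-101, which targets DNMT3A, stood at 1663 ± 68.1 and 1855 ± 355 TPM (limma, adjusted p = 0.483), and its change was below 0 under all 5. miR-126-3p, which targets DNMT1, stood at 101 ± 6.50 and 96.4 ± 12.2 TPM (limma, adjusted p = 0.615) and was called lower under 3 of 5 other scalings. The call of miR-152 ended without control replicate 2 or 3, that of miR-148b-3p without control replicate 1 or 3, and that of miR-22-3p without any 1 of the controls or without AA2P replicate 1 or 2. With the replicate number as a block miR-22-3p alone was called. With no filter on low values, and likewise without control replicate 3, limma called 0 of these 12, and 3 higher and 1 lower had an unadjusted p under 0.05.

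Some other miRNAs known to repress collagens or matrix genes were higher. Of 12 tested besides the family, 5 rose and 0 fell (0 also at an unadjusted p under 0.05 by limma), while 2 of the 3 miR-29 guide products fell; over all entries 19.9% were called higher and 4.85% lower. The median log2 fold change of the 12 was 0.45, where all tested entries had 0.25, and it was 0.15 to 0.25 under the 5 other scalings (all tested entries -0.01 to 0.07), with 3 or 4 called higher. The 5 were miR-30a-5p, miR-30c-5p, miR-30d and miR-30e-5p, of a family that represses the matrix factor CTGF, and let-7g, which targets a collagen transcript. miR-30a-5p rose from 63458 ± 1124 to 100640 ± 6447 TPM (limma, adjusted p = 0.00238) and miR-30e-5p from 1270 ± 128 to 2407 ± 387 TPM (0.00685). miR-30c-5p rose from 6801 ± 536 to 11416 ± 1717 TPM (limma, adjusted p = 0.00962), miR-30d from 13345 ± 465 to 18522 ± 2250 TPM (0.0182) and let-7g from 23349 ± 1801 to 31535 ± 4175 TPM (0.0393). The calls of miR-30a-5p, miR-30c-5p and miR-30e-5p held under all 5 other scalings, that of miR-30d under 2 and that of let-7g under none. Without control replicate 2, with no filter or with the replicate number as a block the count was 3, since the calls of miR-30d and let-7g ended. let-7g also lost its call without control replicate 1 or 3 or AA2P replicate 2 or 3, and by limma without a mean-variance trend. miR-30d also lost its call without control replicate 3. miR-26a, also on this list, was not called, and miR-196a and miR-133b were too low to be tested.

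Of 8 miRNAs associated with fibrosis, 4 were tested, with 2 called lower and 1 higher, where 4.85% and 19.9% of all tested entries were. miR-21-5p fell by 0.35 on the log2 scale (limma, adjusted p = 0.0254; no change under quantile normalization, which fixes the top rank). miR-155-5p fell by 0.61, from 578 ± 76.0 to 376 ± 32.5 TPM (limma, adjusted p = 0.0159), and miR-192 rose by 1.25 (0.00127). miR-34a stood at 295 ± 33.8 and 384 ± 32.2 TPM (limma, adjusted p = 0.0577), with a change just below 0 under 1 of 5 other scalings. Without control replicate 2 or control replicate 3, limma called 0 of the 4 lower, while miR-21-5p and miR-155-5p kept an unadjusted p under 0.05. The call of miR-21-5p also ended without control replicate 1, with no filter, with the replicate number as a block and by limma without a mean-variance trend.

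**Figure D5:**
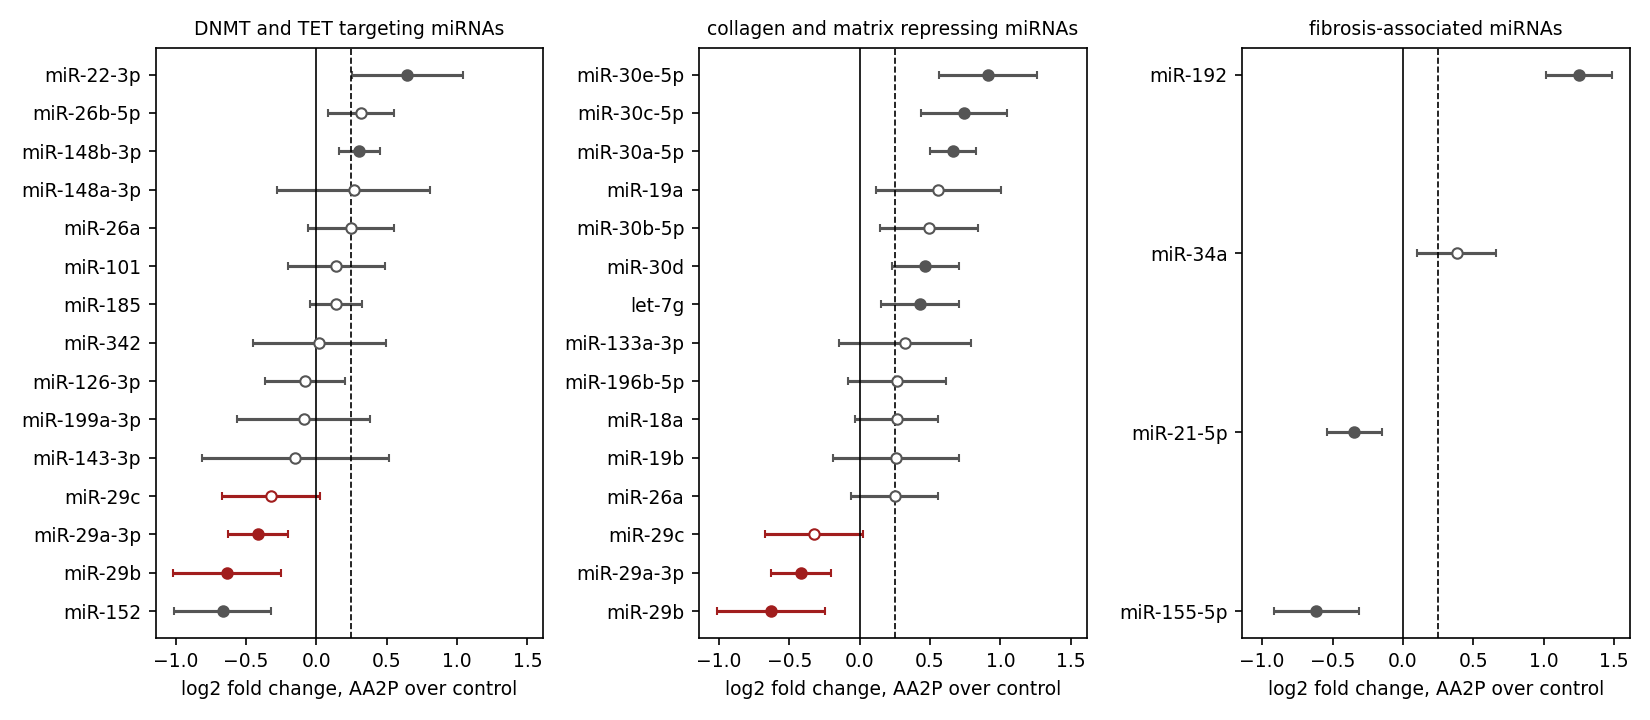
Log2 fold change (AA2P over control, horizontal axis) with 95% interval of the tested members of 3 miRNA lists; filled points were called by limma, red points are miR-29 and the dashed line is the median of all tested entries at 0.25. miR-29 and miR-152 are at the low end of the DNMT and TET list, and miR-29 lies below the miR-30 members in the matrix list.

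The entries whose profile over the 6 libraries was most like that of miR-29a-3p, by root-mean-square difference of centred log2(TPM + 1), were miR-193a-5p (0.0699), miR-31 (0.0840), miR-9860-5p (0.0936), miR-23a (0.111) and miR-1285 (0.116), where the median entry was at 0.417. Of these miR-23a fell, from 2665 to 2118 TPM (limma, adjusted p = 0.0156), and the other 4 were not called. Within the family, miR-29c was at 0.120 from miR-29a-3p, miR-29b at 0.213 and miR-29a-5p at 0.407. The nearest to miR-29b were miR-574-5p (0.127), Novel_708 (0.138), miR-152 (0.141), Novel_490 (0.171) and miR-21-5p (0.173), with the median entry at 0.541. miR-574-5p, for example, fell from 70.2 to 44.7 TPM (limma, adjusted p = 0.00443). No entry was among the nearest 5 of both members.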

How the data were processed

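Small RNA of 3 control and 3 AA2P libraries was analysed from 1 table in TPM that the authors deposited, rounded to 2 decimals. Bowtie is named per the submitters' processing notes. What its settings, the build and the miRBase release were is not given in the sources used here. Members and lists were chosen with earlier results of these data known. Depth came from the step between low values: 99.7 to 100.0% of values matched whole reads (tolerance 0.0051 TPM), where rounding alone gives 26.3 to 36.7%. A count test, planned in case the values were whole counts, was not run on the recovered reads, so calls rest on limma alone. Entries that reached 1 TPM in 3 or more of the 6 libraries (433: 264 known and 169 predicted) were tested as log2(TPM + 1) by limma 3.58.1 in R 4.3.3 with a mean-variance trend and no block, two-sided, with Benjamini-Hochberg adjustment and calls under 0.05. Arm ratios were fitted likewise, with the trend on the level of the lower arm.

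Named were all miR-29 entries, called or most abundant list members, and the 5 entries nearest in profile to miR-29a-3p and to miR-29b. A planned comparison of miRNAs that differ by a single base needed mature sequences and was not run. List names were matched with the arm given; miR-214 was matched to miR-214-3p. Same-numbered libraries deviated together with correlations of 0.288, 0.0620 and 0.177, all positive. With no comparison to other pairings, this check cannot settle whether the numbers pair the libraries. The labels name no pairs, so the main fit took none and the block was kept as an alternative.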

Additional observations from a re-analysis of the deposited data

How the results depend on the processing

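Under 19 alternatives (18 where a mean of at least 10 TPM removed the entry) no miR-29 entry changed direction. The call of miR-29a-3p also ended with no filter on low values (limma, log2 fold change -0.42, adjusted p = 0.0609), and that of miR-29b with no filter (-0.63, 0.135) and with the replicate number as a block (-0.63, 0.0746). With no filter 1645 entries were tested. miR-29c was called with trimmed-mean scaling (-0.55), median of ratios (-0.54), quantile normalization (-0.56) and totals without miR-21-5p (-0.56). Leaving out 1 library gave -0.50 to -0.37 for miR-29a-3p, -0.78 to -0.50 for miR-29b, -0.40 to -0.28 for miR-29c, 0.19 to 0.35 for miR-29a-5p, and 63 to 97 calls in all. The 107 calls became 57 with no filter and 63 with the replicate block, whose numbers are not shown to pair the libraries. The log2 change of the summed family was -0.42 as deposited, -0.70, -0.69, -0.78, -0.71 and -0.61 under trimmed-mean, median-of-ratios, quantile and both reduced-total scalings, and -0.50 to -0.38 without 1 library. The ratio of miR-29c to miR-29a-3p changed sign without control replicate 1 (-0.06) or AA2P replicate 1 (-0.092), and ranged from -0.092 to 0.078 without 1 library. That of miR-29b to miR-29a-3p ranged from -0.39 to -0.12. The arm ratio of miR-29a ranged from 0.60 to 0.94 without 1 library, and from 0.56 to 0.85 by limma (adjusted p = 3.11e-04 to 0.300); with the block its adjusted p was 0.379. At 3 to 5 TPM an entry rests on few reads (73 to 146 for miR-29a-5p and 102 to 141 for miR-29c), which limits both.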
